A study of Mus musculus with 288 samples.

Results

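The comparison is dCA against DMSO in mouse bone marrow-derived macrophages that received no stimulus. dCA, which the labels give as an inhibitor of CDK8, was present at 100 nM for 24 h in 8 wells, and DMSO, the solvent control, in the other 8. The 16 wells were chosen by their labels, as the unstimulated wells of these pretreatments, out of a series of 3 plates with 96 wells each. Each group holds 1 well for each of 8 time labels, at 15, 30, 45, 60, 90, 120, 150 and 180 min. Both groups, and every other group used here, are macrophages of C57BL/6 mice aged 12 weeks, grown from bone marrow with M-CSF over 7 days. Another set of 8 unstimulated wells carried BRD-6989 at 1 µM, the second CDK8 inhibitor of the labels, and 176 wells carried dCA or DMSO together with 1 of 11 stimuli. Each pretreatment filled its own plate (N702 for dCA, N703 for BRD-6989 and N701 for DMSO), so the pretreatment and the plate cannot be told apart. The labels name no separate cultures or animals, so p-values rest on the spread between wells, which may be technical. Each test estimates that spread through its own model, and standard errors and p-values changed with the model.

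CDK8 and its paralog CDK19 are kinases of the Mediator complex, the bridge between transcription factors and RNA polymerase II. Either kinase sits with cyclin C, MED12 and MED13 in a module that binds Mediator reversibly and can raise or lower the output of a gene. Its known substrates include transcription factors, among them the sterol regulator SREBP. Macrophages are phagocytes whose lysosomal proteases, iron stores and lipid handling serve the digestion of what they take up.

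Gene expression was read by 3' digital gene expression, in which each transcript end carries a random barcode, so that distinct barcodes (UMI) count molecules. UMI totals ran from 52710 to 103310 in dCA wells and from 51040 to 100421 in DMSO wells. Rn45s, the ribosomal RNA precursor, took 45.5% to 57.0% of UMI in dCA wells and 43.8% to 60.3% in DMSO wells, and 24206 to 45212 UMI (dCA) and 28392 to 42849 UMI (DMSO) remained for other genes. Between 4127 and 5570 genes were detected in dCA wells and between 4652 and 5586 in DMSO wells. Levels below are CPM, the counts of UMI relative to the TMM-scaled total of the well. Of 25 macrophage markers 21 were tested and 0 passed the test described next, with a summed level of 5374 to 7576 in dCA wells and 6217 to 7927 in DMSO wells. Marco, a scavenger receptor, had no UMI. All 6 B cell markers in the tables had 0 UMI in all 16 wells, as did 10 of 11 markers of T and NK cells, 10 of 11 of erythroid cells and megakaryocytes, and 8 of 10 of fibroblasts and stroma. Osteoclast markers summed to 50.9 to 211 in dCA wells and 52.3 to 194 in DMSO wells, and Ctsk, Calcr and Oscar had 0 UMI. Of 11 such markers 4 were tested and 0 passed, with 3 higher and 1 lower in dCA wells. Their median log2 change, dCA over DMSO, was 1.03, and in stimulated wells 2 rose with dCA and 0 fell. Neutrophil markers summed to between 0 and 105 in dCA wells and between 13.3 and 129 in DMSO wells. The erythroid and megakaryocyte list, through the 1 marker found, reached 125 to 473 in dCA wells and 145 to 361 in DMSO wells. Dendritic cell markers, 7 of 13 without UMI, summed to 89.0 to 248 in dCA wells and 120 to 281 in DMSO wells. For stem and progenitor markers, 5 of 8 without UMI, the sums were 44.0 to 285 (dCA) and 26.2 to 145 (DMSO). In these lists 0 markers passed.

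In dCA wells 33 genes rose and 3 fell. The rises were led by Slc5a3, Ctla2a, Nptx1 and Tfrc in log2 change, and Ctsl and Fth1 had the smallest adjusted p. The falls were Ddx58, Ccnd2 and S100a4. In all, 36 of 5709 genes that averaged 1 UMI or more in a well passed an adjusted p of 0.05 in edgeR's quasi-likelihood test with the time label as a block, or 0.631% of those tested (0.578% higher and 0.0525% lower). The median log2 change over all 5709 genes was -0.03. In bulk wells, more RNA per cell and more cells of a kind cannot be told apart. For 13 genes, 0.228% of those tested, every dCA well lay above or below every DMSO well. Counted as total reads in place of UMI, 17 genes passed, all among the 36: Adam8, Apobec1, Ctla2a, Ctsd, Ctsl, Ddx58, Dot1l, Ednrb, Fabp5, Fth1, Gnptab, Malat1, Nptx1, Nrp1, Rab8b, Tfrc and Tpt1. In the wells of 60 min and later alone, 10 genes passed, 8 of them among the 36.

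**Figure D1:**
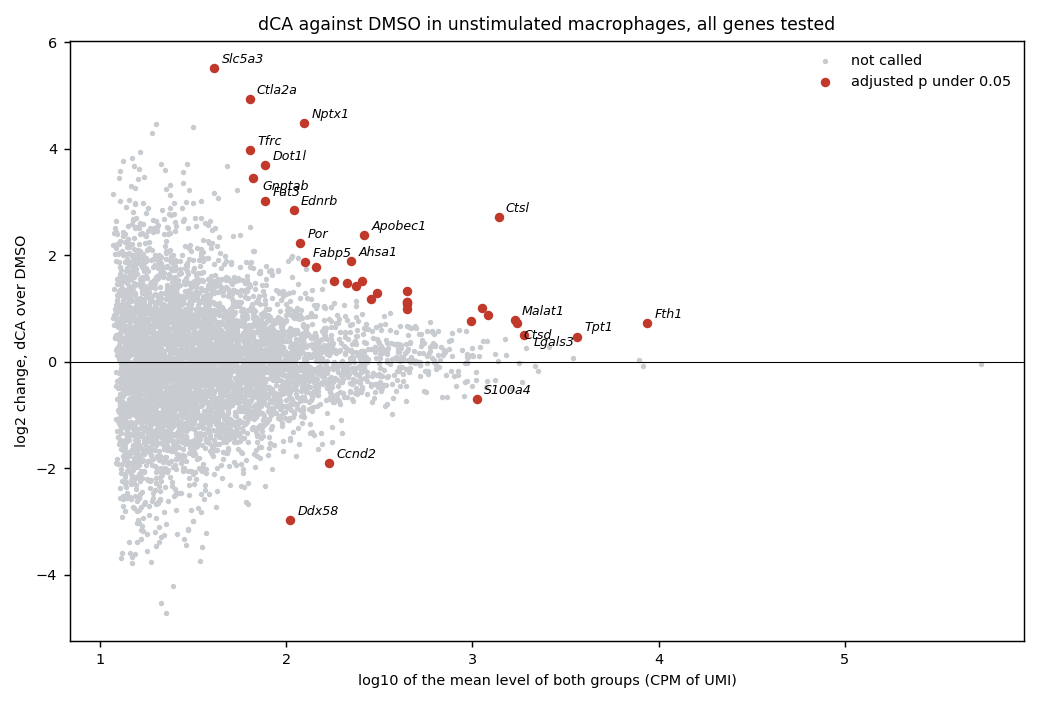
Each point is 1 of the 5709 genes tested, with the log10 of its mean level over both groups (CPM) on the x axis and its log2 change, dCA over DMSO, on the y axis. Red points are the 36 genes with an adjusted p under 0.05, of which 33 lie above 0, and Ctsl at 2.71 stands above the other genes of its level.

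Ctsl, which encodes the lysosomal cysteine protease cathepsin L, had the smallest adjusted p of the genes tested. Its level ran from 1117 to 3478 in dCA wells, with a median of 2526, and from 242 to 507 in DMSO wells, with a median of 326. Every dCA well lay above every DMSO well. The means were 2407 ± 736 in dCA wells and 360 ± 107 in DMSO wells (SD, n = 8 each), and the log2 change was 2.71 ± 0.17 (SE) with an adjusted p of 1.98e-55. The gene lies at chr13:64361890-64370772 (GRCm38.p6, the mm10 build). Ctsd, the lysosomal aspartic protease cathepsin D (chr7:142375910-142387827), was also higher in every dCA well. It ran from 1608 to 2628 in dCA wells, with a median of 2294, and from 1042 to 1597 in DMSO wells, with a median of 1235. The log2 change was 0.73 ± 0.14 (adjusted p = 0.00016). The promoters of both genes are shown because they hold a CACGTG box, the core of the site bound by lysosomal regulators of the TFEB family. They come from the RefSeq table of GRCm38.p6 and run 5′ to 3′ on the minus strand, each 300 bases over the start the table gives (chr13:64370471-64370770 for Ctsl and chr7:142387778-142388077 for Ctsd). For Ctsl that start lies inside the annotated span of the gene. All 300 bases of its window fall within the span, so no base upstream of the outer end was searched. The CACGTG box of Ctsl and the longer TCACGTGA (CLEAR) box of Ctsd are in capitals.
Ctsl promoter: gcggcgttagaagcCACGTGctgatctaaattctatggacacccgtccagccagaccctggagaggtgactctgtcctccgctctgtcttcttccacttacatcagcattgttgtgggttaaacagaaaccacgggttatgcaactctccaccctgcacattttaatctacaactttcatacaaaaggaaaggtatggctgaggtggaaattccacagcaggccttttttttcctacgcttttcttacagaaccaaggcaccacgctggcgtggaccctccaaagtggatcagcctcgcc
Ctsd promoter: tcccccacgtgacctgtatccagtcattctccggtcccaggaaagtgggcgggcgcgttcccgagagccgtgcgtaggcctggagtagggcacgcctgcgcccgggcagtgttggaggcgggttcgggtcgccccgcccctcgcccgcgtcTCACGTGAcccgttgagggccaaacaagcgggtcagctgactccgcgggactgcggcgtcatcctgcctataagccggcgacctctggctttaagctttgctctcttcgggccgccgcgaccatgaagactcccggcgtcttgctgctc
Of the 27 risen genes with a promoter in the table, 3 (Ctsd, Ctsl and Snx5) held CACGTG, against 8.09% of all 27025 promoters and 12.5% of the 4323 promoters of tested genes. TCACGTGA was in 1 of them (Ctsd), against 1.12% of all and 2.85% of tested promoters. TCACGTGA contains CACGTG, and both read the same on either strand. Of 32 lysosome and proton pump genes tested, 2 rose (Ctsl and Ctsd) and 0 fell, 14 were above 0 and 18 below, and their median log2 change was -0.13, which took either sign among the processing alternatives. Of all genes tested 0.578% rose, and the gene lists were chosen with earlier results of these data known.

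Ctla2a, a mouse gene whose product resembles the propeptide of cathepsins and inhibits proteases of the cathepsin L type, had 76 UMI in dCA wells and 2 in DMSO wells. Its level ran from 0 to 223 in dCA wells, with a median of 114, and it was 0 in all DMSO wells but the one at 15 min, which had 22.7. The groups overlap through 1 dCA well at 0. The ratio of the summed UMI was 36.2, with a 95% interval of 9.68 to 304 that covers counting error only, and the log2 change was 4.93 ± 0.99 (adjusted p = 0.000296). Ctla2b, the neighbouring paralog with a close sequence, ran from 143 to 245 in dCA wells and from 0 to 187 in DMSO wells, with a log2 change of 1.74 ± 0.52 that did not pass (adjusted p = 0.0832). How reads shared by the pair were counted is not given in the sources used here. The promoter of Ctla2a (chr13:60936576-60936875, minus strand, the first of 2 starts in the table) is shown because it is the only one among the 27 that holds the AP-1 site TGACTCA, searched on both strands and given in capitals; 5.95% of all promoters and 4.56% of those of tested genes hold it.
Ctla2a promoter: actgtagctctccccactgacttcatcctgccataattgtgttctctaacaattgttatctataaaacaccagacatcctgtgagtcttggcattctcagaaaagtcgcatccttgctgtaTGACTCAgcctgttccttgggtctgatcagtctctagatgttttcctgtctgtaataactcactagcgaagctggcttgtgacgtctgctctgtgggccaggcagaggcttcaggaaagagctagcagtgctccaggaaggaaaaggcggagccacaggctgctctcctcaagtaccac

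**Figure D2:**
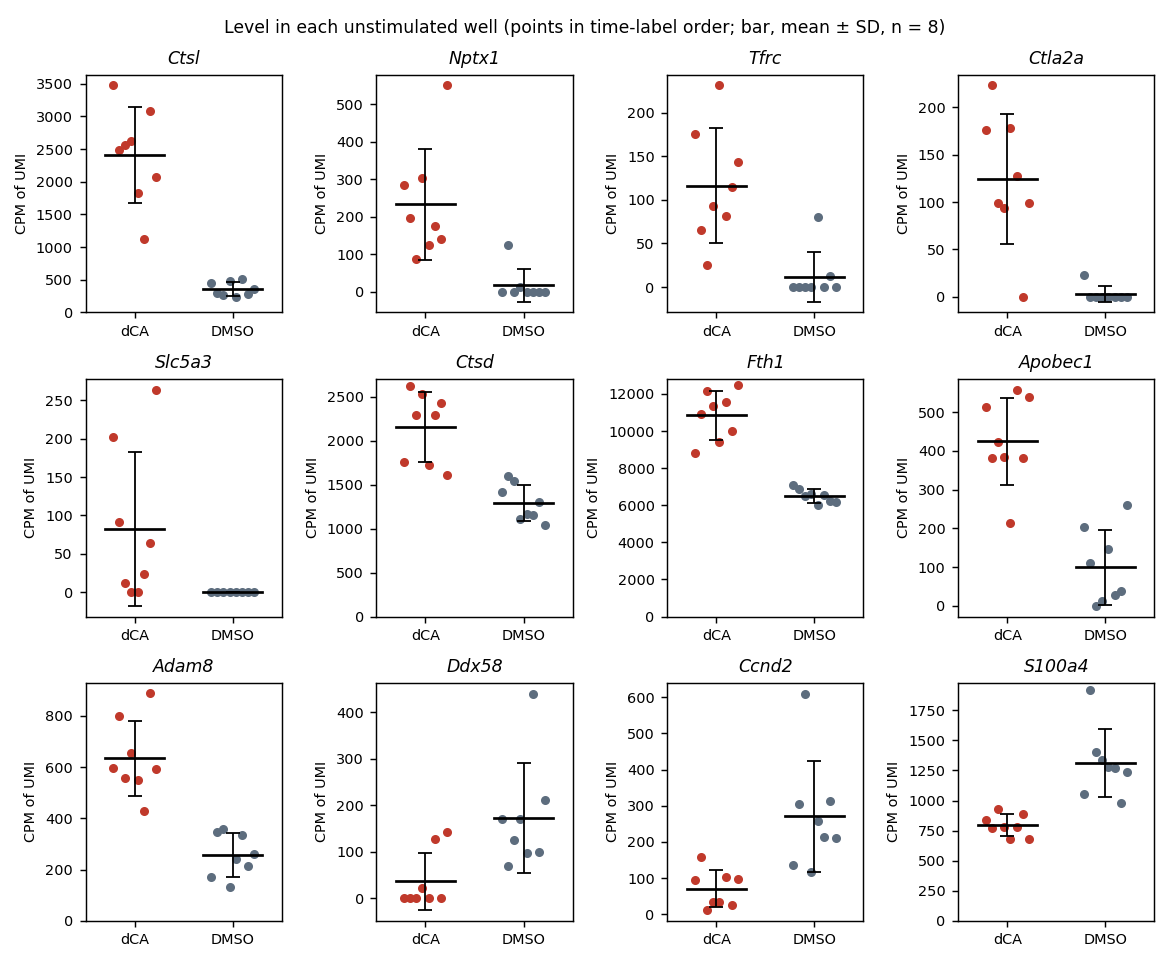
Each panel gives 1 gene, with its level in CPM on the y axis, the 8 dCA wells on the left and the 8 DMSO wells on the right, points in the order of the time labels, and bars for the mean and SD. The dCA wells lie above all DMSO wells for Ctsl, Ctsd, Fth1 and Adam8 and below all of them for S100a4, while the groups overlap in the other panels.

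Iron import and storage genes were both among the rises. Tfrc, the transferrin receptor through which cells take up iron (chr16:32608896-32632794), ran from 24.8 to 231 in dCA wells, with a median of 104. It was 0 in 6 of 8 DMSO wells and reached 80.7 in the well at 90 min. The log2 change was 3.98 ± 0.90 (adjusted p = 0.00366). Fth1, the heavy chain of the iron store ferritin (chr19:9980600-9985111), ran from 8811 to 12498 in dCA wells, with a median of 11134, and from 6022 to 7085 in DMSO wells, with a median of 6517. Here the groups did not overlap, and the log2 change was 0.73 ± 0.09 (adjusted p = 1.01e-12). Of 11 iron and heme genes tested these 2 rose and 0 fell, 7 were above 0 and 4 below, and the median was 0.16. Among all genes tested, 0.578% rose and 48.6% were above 0, and this list too was chosen with earlier results known. Ftl1, the light chain of ferritin, changed by 0.07 and did not pass.

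Several surface and secreted proteins stood out from a DMSO level near 0. Nptx1, a secreted pentraxin known from neurons (chr11:119538719-119547820), had 152 UMI in dCA wells and 10 in DMSO wells. Its level ran from 86.9 to 551 in dCA wells, with a median of 186, and from 0 to 125 in DMSO wells, with a median of 0. The log2 change was 4.48 ± 0.66 (adjusted p = 2.44e-08). Slc5a3, the sodium-coupled transporter of myo-inositol (chr16:92058322-92087473), had 54 UMI in dCA wells and 0 in DMSO wells, at least 17.1-fold more when DMSO is set at 3 counts over the group. Its dCA wells were uneven, running from 0 to 264 with a median of 43.4. The fit gave an adjusted p of 0.0115, which became 0.142 without the wells of 15 min, 0.0564 without 30 min and 0.248 without 180 min. Slc5a3 overlaps Mrps6, a gene of the mitochondrial ribosome, in the annotation; Mrps6 had 14 UMI in dCA wells and 5 in DMSO wells and did not pass (adjusted p = 1.00). Of 8 osmotic response and inositol genes tested, Slc5a3 was the 1 that passed. Ednrb, an endothelin receptor, ran from 38.2 to 385 in dCA wells, with a median of 167, and from 0 to 125 in DMSO wells, with a median of 14.7 (log2 change 2.85 ± 0.62, adjusted p = 0.0017). Fat3, an atypical cadherin, changed by 3.01 ± 0.76 (adjusted p = 0.0139), with an adjusted p of 0.107, 0.126 and 0.126 without 30, 45 and 180 min. Ccr3, a chemokine receptor used here as a marker of eosinophils, had 39 UMI in dCA wells and 1 in DMSO wells, and all dCA wells (12.7 to 122) lay above all DMSO wells (0 to 11.4). Its log2 change of 4.40 ± 1.30 did not pass (adjusted p = 0.0808), but did without the replicate block (0.027), with all 24 unstimulated wells in one fit (0.0161) and with the wells of the whole series in one fit (0.00615). Of the 15 eosinophil, basophil and mast cell markers in the tables, 13 had 0 UMI in all 16 wells, Epx and Prg2 among them.

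Other surface and secreted products were found in both groups, Cd5l at the lowest levels of them. Nrp1, the co-receptor neuropilin, ran from 841 to 2218 in dCA wells, with a median of 1534, and from 437 to 1094 in DMSO wells, with a median of 739 (log2 change 1.01 ± 0.17, adjusted p = 2.34e-06). Adam8, a membrane metalloprotease, ran from 430 to 891 in dCA wells, with a median of 595, and from 131 to 359 in DMSO wells, with a median of 251. Its groups did not overlap (log2 change 1.32 ± 0.25, adjusted p = 6.2e-05). Gas6, the ligand of receptors that clear dying cells, ran from 1123 to 2011 in dCA wells and from 484 to 1153 in DMSO wells (0.88 ± 0.16, adjusted p = 4.27e-05). Cd5l, a secreted scavenger protein of macrophages, ran from 158 to 374 in dCA wells and from 37.2 to 203 in DMSO wells (1.48 ± 0.37, adjusted p = 0.0111). Its adjusted p was 0.0586 without 150 min and 0.111 without 180 min. Lgals3, a galectin, rose by 0.50 ± 0.14 (adjusted p = 0.0491), a call that ended without the wells of 15, 30, 45, 60, 150 or 180 min (adjusted p 0.0564 to 0.248).

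Lipid handling genes rose in part. Of 16 LXR targets and lipid handling genes tested, 3 rose and 0 fell, 10 were above 0 and 6 below, and the median log2 change was 0.16. Of all genes tested, 0.578% rose and 48.6% were above 0. The list was chosen with earlier results of these data known. Lpl, the lipase that frees fatty acids from lipoproteins, ran from 966 to 1482 in dCA wells, with a median of 1262, and from 440 to 1014 in DMSO wells, with a median of 729 (0.76 ± 0.18, adjusted p = 0.00398, or 0.0692 without 150 min). Lipa, the lysosomal acid lipase, ran from 118 to 525 in dCA wells and from 48.4 to 227 in DMSO wells (1.42 ± 0.35, adjusted p = 0.0103, or 0.0839 without 60 min and 0.104 without 150 min). Fabp5, a fatty acid binding protein, ran from 107 to 292 in dCA wells and from 12.4 to 120 in DMSO wells (1.88 ± 0.51, adjusted p = 0.0379). Its call ended without the wells of 15, 45, 60, 90, 150 or 180 min (adjusted p 0.0511 to 0.27). Cd36, a fatty acid and scavenger receptor, ran from 178 to 573 in dCA wells and from 90.8 to 440 in DMSO wells and did not pass (0.86 ± 0.28, adjusted p = 0.208), but did without 90 min (adjusted p = 0.0439). Outside that list, Por, the reductase that supplies microsomal oxygenases, changed by 2.23 ± 0.55 (adjusted p = 0.0103) and lost its call without 15, 45, 60 or 180 min (0.0629 to 0.135). Abhd12, a lipase of lysophosphatidylserine, changed by 1.12 ± 0.25 (adjusted p = 0.00316, or 0.0889 without 45 min). Of 24 cholesterol and fatty acid synthesis genes 0 passed, while 18 were above 0 (of all genes tested, 48.6% were) and the median was 0.52, between 0.39 and 1.21 over the alternatives. Fasn, the fatty acid synthase, had a median level of 169 in dCA wells and 73.6 in DMSO wells (0.86 ± 0.51, adjusted p = 0.967).

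Several risen genes belonged to no list. Apobec1, a cytidine deaminase that edits mRNA, ran from 214 to 558 in dCA wells, with a median of 404, and from 0 to 260 in DMSO wells, with a median of 74.4 (2.38 ± 0.35, adjusted p = 2.53e-08). Dot1l, the methyltransferase of histone H3 lysines on transcribed genes, ran from 0 to 233 in dCA wells, with a median of 155, and was at or below 13.9 in every DMSO well but the one at 90 min, which had 96.9 (3.69 ± 0.82, adjusted p = 0.00258). Gnptab, which begins the mannose phosphate tag of lysosomal enzymes, ran from 46.7 to 217 in dCA wells and from 0 to 64.6 in DMSO wells (3.46 ± 0.84, adjusted p = 0.00922, or 0.0884 without 15 min and 0.0544 without 180 min). Ahsa1, an activator of the chaperone HSP90, ran from 160 to 636 in dCA wells and from 13.9 to 182 in DMSO wells (1.89 ± 0.37, adjusted p = 0.000214). Of 8 heat shock chaperones tested, 0 passed. Id2, an inhibitor of helix-loop-helix factors, ran from 427 to 744 in dCA wells and from 15.6 to 471 in DMSO wells (1.09 ± 0.25, adjusted p = 0.0037, or 0.126 without 45 min and 0.05004 without 60 min).

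Other rises stood outside the lists too. Snx5, a sorting nexin of endosomes, ran from 303 to 573 in dCA wells and from 80.7 to 261 in DMSO wells, with no overlap (1.19 ± 0.31, adjusted p = 0.019, or 0.104 without 150 min and 0.0689 without 180 min). Rab8b, a small GTPase, changed by 1.30 ± 0.31 (adjusted p = 0.00842, or 0.318 without 30 min and 0.0773 without 120 min). The gene 5430435G22Rik, which the reference table names Rab7b, changed by 1.12 ± 0.25 (adjusted p = 0.00253, or 0.0544 without 180 min). Myo5a, a myosin that carries vesicles, changed by 1.51 ± 0.35 (adjusted p = 0.00434, or 0.0878 without 15 min and 0.0615 without 60 min). Rap2a, another small GTPase, ran from 78.8 to 455 in dCA wells and from 26.2 to 141 in DMSO wells (1.78 ± 0.48, adjusted p = 0.036), and lost its call without 15, 45, 60, 90, 120 or 180 min (0.0561 to 0.395). Hmga2, a chromatin protein, changed by 1.53 ± 0.41 (adjusted p = 0.0377) and lost its call without 15, 30, 45, 60, 90 or 180 min (0.0768 to 0.214). Malat1, a nuclear long non-coding RNA, ran from 1192 to 3885 in dCA wells and from 653 to 1854 in DMSO wells (0.78 ± 0.14, adjusted p = 5.76e-05). Tpt1, an abundant translationally controlled protein gene, changed by 0.48 ± 0.11 (adjusted p = 0.00614, or 0.0693 without 45 min).

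The 3 falls were of unlike genes. Ddx58 encodes RIG-I, the cytosolic sensor of viral RNA, and is itself induced by interferon (chr4:40203777-40239825). It had 26 UMI in dCA wells and 105 in DMSO wells, and its level ran from 0 to 143 in dCA wells, with a median of 0, and from 69.4 to 440 in DMSO wells, with a median of 148. It was lower with dCA at 8 of 8 times, although the groups overlapped (-2.97 ± 0.64, adjusted p = 0.00141). Its promoter (chr4:40239776-40240075, minus strand) is shown with the core of the interferon response element in capitals, written TTTCNNTTT and searched on both strands.
Ddx58 promoter: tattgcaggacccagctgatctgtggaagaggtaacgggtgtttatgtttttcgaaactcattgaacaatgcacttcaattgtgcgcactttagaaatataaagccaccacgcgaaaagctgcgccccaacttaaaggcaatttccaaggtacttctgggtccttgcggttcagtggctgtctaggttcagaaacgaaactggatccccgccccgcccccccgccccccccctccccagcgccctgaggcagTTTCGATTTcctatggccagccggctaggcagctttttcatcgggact
That core was found in 1 of the 2 fallen genes with a promoter in the table, in 2 of the 27 risen ones (Ctsl and Gas6) and in 12.1% of all and 10.5% of tested promoters. Of the other motifs searched on both strands, GGANTTTCC (NF-kB) was in 1 risen gene, Ctsl, in 1.45% of all and in 1.64% of tested promoters. TGACNNNGC (antioxidant) was in 5 risen genes, 14.0% of all and 17.8% of tested promoters, and TCACNCCAC (sterol) in 1, 1.44% and 1.46%. ACGTG (hypoxia, also inside CACGTG) was in 7 risen genes, 21.8% of all and 30.2% of tested promoters, and GGGCGG (GC box) in 18, 38.2% and 71.1%. Ccnd2, cyclin D2, which drives entry into the cell cycle (chr6:127125162-127152188), ran from 12.4 to 158 in dCA wells, with a median of 65.2, and from 118 to 609 in DMSO wells, with a median of 236. It was also lower at 8 of 8 times (-1.90 ± 0.44, adjusted p = 0.00434, or 0.159 without 45 min and 0.0599 without 150 min). S100a4, a calcium-binding protein linked to cell motility (chr3:90603770-90606045), ran from 676 to 931 in dCA wells, with a median of 781, and from 981 to 1916 in DMSO wells, with a median of 1271. It was 1 of 13 tested S100 and calcium-binding genes on the list, where Lgals3 rose and 0 others passed. Its groups did not overlap (-0.70 ± 0.17, adjusted p = 0.00842, or 0.108 without 30 min and 0.05004 without 60 min).

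Interferon response genes lay mostly below 0 in dCA wells, with 1 of 48 passing the test. Ddx58 fell and 0 rose, 13 were above 0 and 35 below (of all genes tested, 51.4% were below 0), and the median log2 change was -0.62, between -1.0 and -0.24 over the alternatives. Ifi27l2a and Ly6e, the members with the highest levels, lay on the other side, at 0.27 and 0.30, and did not pass. Cxcl10, a chemokine induced by interferon, ran from 46.7 to 512 in dCA wells, with a median of 240, and from 15.6 to 682 in DMSO wells, with a median of 540. It did not pass (-0.97 ± 0.28, adjusted p = 0.0664), but it did without the wells of 45 min, where the DMSO well had 15.6 (-1.33, adjusted p = 0.0015). Ifit2, an antiviral effector, changed by -1.54 (adjusted p = 0.0749) and was lower at 8 of 8 times; Ifit3 had 17 UMI in dCA wells and 35 in DMSO wells (adjusted p = 1.00). Of 12 genes of antigen processing and MHC class I, 0 passed, 11 were below 0 and the median was -0.59, between -0.78 and -0.45. B2m, the light chain of MHC class I, had a median level of 828.9 in dCA wells and 1218 in DMSO wells (-0.46 ± 0.17, adjusted p = 0.397).

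**Figure D3:**
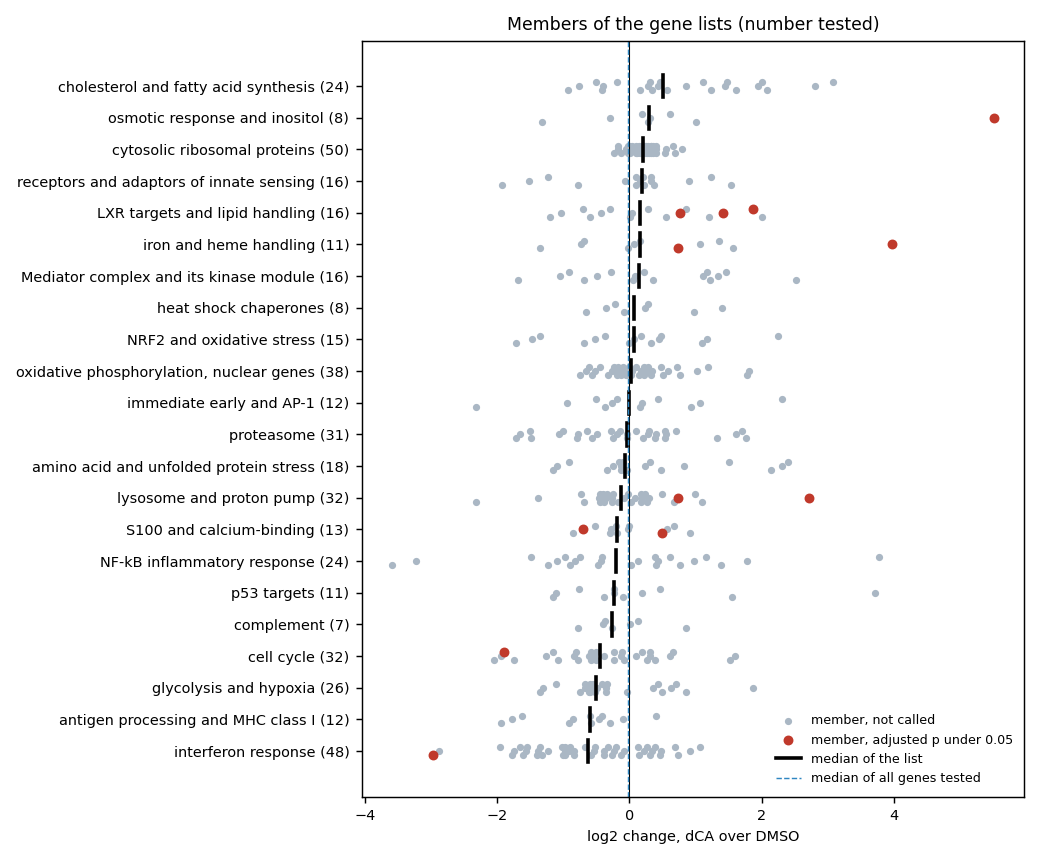
Each point is a tested member of a gene list at its log2 change, dCA over DMSO, on the x axis; red points passed an adjusted p of 0.05, black bars are the medians of the lists, and the number tested stands after each name. The medians run from -0.62 for the interferon response to 0.52 for cholesterol and fatty acid synthesis, and few members of any list are red.

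Of 32 cell cycle genes, Ccnd2 fell and 0 rose, 22 were below 0 and the median was -0.44, between -0.55 and -0.30 over the alternatives. Mki67, a marker of dividing cells, had a median level of 208 in dCA wells and 399 in DMSO wells and did not pass (adjusted p = 0.974). Of 26 glycolysis and hypoxia genes 0 passed, 19 were below 0 and the median was -0.50, between -0.56 and -0.37. Gapdh, a glycolytic enzyme, ran from 854 to 1634 in dCA wells and from 1587 to 2166 in DMSO wells and was lower at 8 of 8 times (-0.51 ± 0.14, adjusted p = 0.0540). Pkm, pyruvate kinase, was lower at 8 of 8 times as well (-0.35 ± 0.16, adjusted p = 0.651). Of 50 cytosolic ribosomal protein genes 0 passed, 43 were above 0 and the median was 0.21, between 0.18 and 0.30. Of 31 proteasome genes and 38 nuclear genes of oxidative phosphorylation 0 passed, with medians of -0.03 and 0.03. The lists of NRF2 and oxidative stress (15 tested), immediate early genes (12), amino acid and unfolded protein stress (18), p53 targets (11), innate sensing (16), complement (7) and alternative activation (5) held 0 calls.

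Inflammatory genes gave no call without a stimulus. Of 24 tested genes of the NF-kB inflammatory response 0 passed, 12 were above 0 and 12 below, with a median of -0.20 that took either sign among the alternatives. Tnf, the cytokine, had 37 UMI in dCA wells and 61 in DMSO wells (-0.48 ± 0.68, adjusted p = 1.00). Il1b had 2 and 11 UMI and Il10 had 1 and 0 UMI in dCA and DMSO wells, too few to be tested. Mrc1, a mannose receptor of alternatively activated macrophages, ran from 1107 to 2345 in dCA wells and from 922 to 1937 in DMSO wells (0.44 ± 0.15, adjusted p = 0.269). The genes of the CDK8 module itself were near the detection limit. Cdk8 had 23 UMI in dCA wells, in 3 of which it was found, and 1 in DMSO wells (adjusted p = 0.999), Cdk19 had 3 and 5 UMI, and Ccnc, cyclin C, had 10 and 3 UMI. Med12 and Med13 changed by 0.06 ± 1.40 and 1.18 ± 1.14 and did not pass, and Med12 took either sign among the alternatives. Of 33 Mediator genes 16 were tested and 0 passed.

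Some genes outside the naming rule were picked after their values were seen, because no dCA well overlapped a DMSO well although the test did not call them. Pdxk, the kinase of vitamin B6, ran from 145 to 382 in dCA wells and from 37.2 to 138 in DMSO wells (1.52 ± 0.43, adjusted p = 0.0616). Atp6v0a1, a subunit of the lysosomal proton pump, ran from 71.2 to 256 in dCA wells and from 13.9 to 66.7 in DMSO wells (1.89 ± 0.57, adjusted p = 0.0943). Fuca2, a fucosidase, had 0 UMI in dCA wells and 28 in DMSO wells, at least 9.81-fold lower with dCA at 3 counts over the group. Ptgs1, a cyclooxygenase, had 0 and 25 UMI, at least 8.75-fold lower with dCA. These fold bounds do not allow for the choice of the genes by their values. Psmd7, a proteasome subunit that the rule for lists names, was lower with dCA at 8 of 8 times with some overlap (-1.50 ± 0.42, adjusted p = 0.0502).

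TF-seq, in which each of 58 reporter constructs is read through its own tag, gave a separate readout of the same 16 wells. The constructs carry a response element, except the control minP_58, which has a minimal promoter alone. Total reporter counts ran from 1011 to 1478 in dCA wells, with a median of 1312, and from 716 to 997 in DMSO wells, with a median of 801. They were higher with dCA at 8 of 8 times (exact paired permutation p = 0.00781, the smallest that 8 pairs allow, and 0.0273 adjusted over 7 library measures). Per 1000 UMI without Rn45s, there were 29.1 to 44.9 reporter counts in dCA wells and 18.6 to 31.3 in DMSO wells. As shares of all reporter counts, 4 of 58 reporters changed (6.9% of those tested), 1 up and 3 down. NFkB_1 ran from 13915 to 49882 CPM of reporter counts in dCA wells, with a median of 36992, and from 44905 to 94914 in DMSO wells, with a median of 52308. It was lower with dCA at 8 of 8 times (log2 change -0.73 ± 0.09, adjusted p = 5.74e-10). Other fits gave it a wider error and a larger p: -0.75 ± 0.16 with DESeq2 (adjusted p = 0.000107) and -0.72 ± 0.15 without the replicate block (adjusted p = 0.000561). IRF3.7_45 ran from 14669 to 26446 in dCA wells and from 25109 to 33719 in DMSO wells (-0.52 ± 0.15, adjusted p = 0.0115, or 0.0662 without 15 min). AP1_33 ran from 66333 to 83872 in dCA wells and from 52452 to 72577 in DMSO wells and was higher at 8 of 8 times (0.30 ± 0.06, adjusted p = 0.0115). Its call ended with DESeq2 (adjusted p = 0.0565) and without the replicate block (0.30 ± 0.10, adjusted p = 0.0849).

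**Figure D4:**
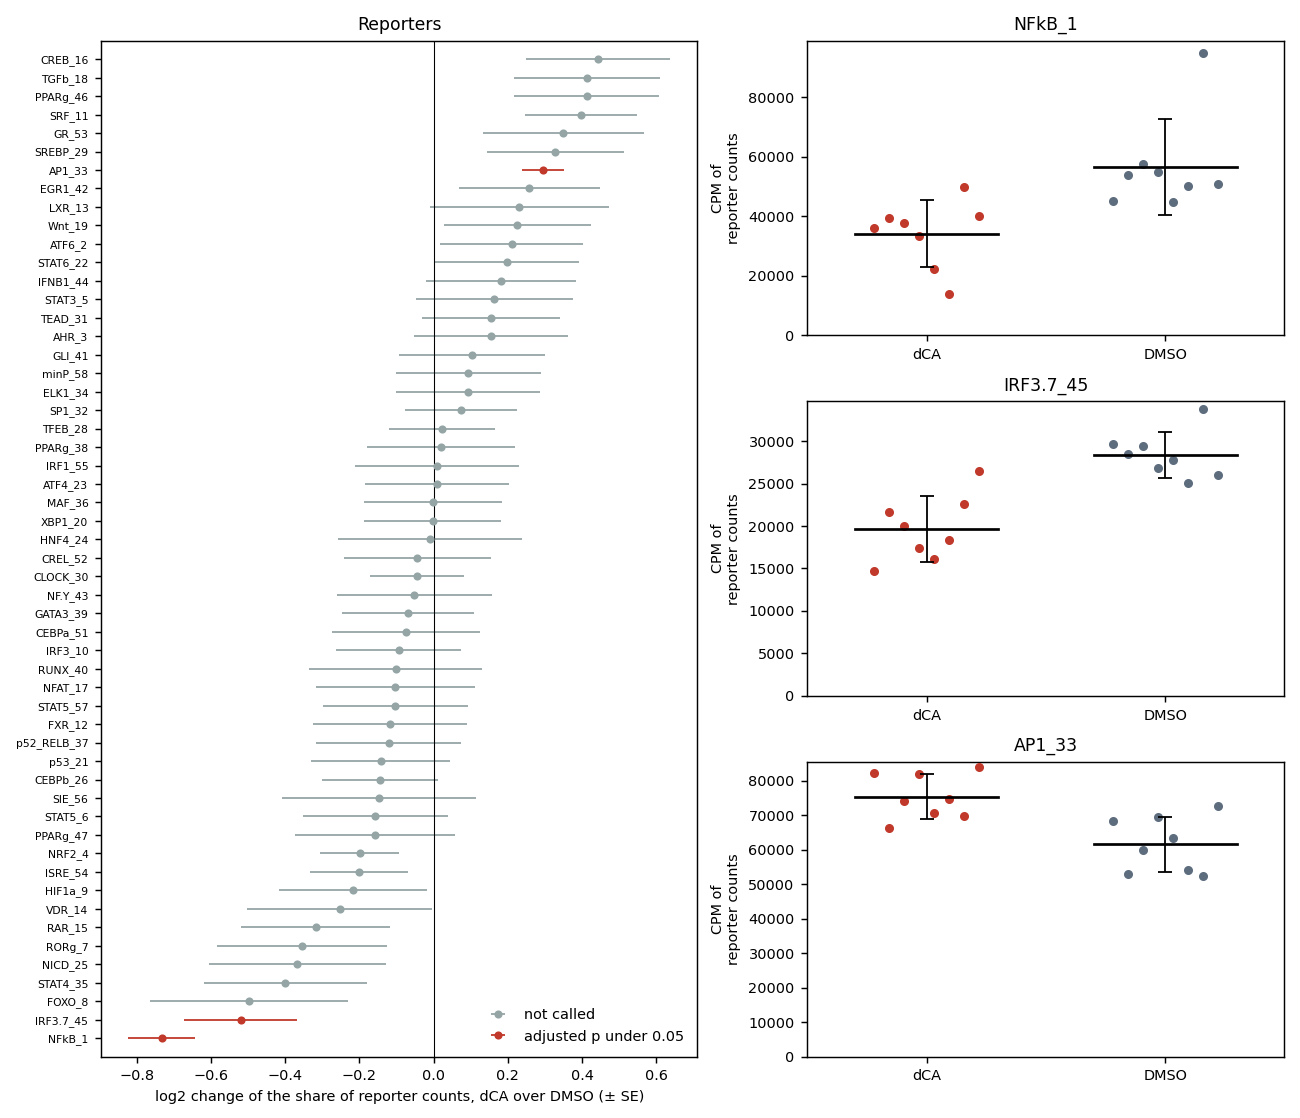
The left panel gives the log2 change of reporters as a share of all reporter counts, dCA over DMSO, with its SE; the right panels give the 8 dCA wells (left) and 8 DMSO wells (right) of 3 called reporters in CPM of reporter counts, with mean and SD. NFkB_1 and IRF3.7_45 lie lowest of those drawn, at -0.73 and -0.52, and the control minP_58 lies near 0.

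Set against the UMI of genes other than Rn45s, 36 of 58 reporters were higher with dCA, 0 were lower, and the median log2 change was 0.52. On that scale minP_58, the control with a minimal promoter alone, was higher by 0.64 ± 0.22 (adjusted p = 0.009), AP1_33 was higher by 0.85 ± 0.12, and NFkB_1 did not pass (-0.18 ± 0.14, adjusted p = 0.217). IRF3.7_45 was at 0.03 (adjusted p = 0.896). The raw counts of NFkB_1 were 355 in dCA wells and 369 in DMSO wells, and those of AP1_33 were 775 and 399. Whether cells differed in their content of reporter constructs was not tested. For reporter totals, too, the pretreatment and the plate cannot be told apart. ISRE_54, a reporter of the interferon response element, lay at -0.20 as a share of reporter counts and did not pass. TFEB_28, a reporter named for TFEB, lay at 0.02 ± 0.14 on the same scale and did not pass (adjusted p = 0.98). It was higher with dCA at 5 of 8 times. As a scale for these shares, NFkB_1 reached 204786 to 273523 CPM, without TMM, in the 5 DMSO wells with LPS from 60 min on, against 14683 to 50744 in the dCA wells and 44025 to 94176 in the DMSO wells without stimulus.

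The stimulated wells of the same plates measure the dCA effect in other wells, with the plate still tied to the pretreatment. All 36 genes had the same sign in the mean over 11 stimuli, and 34 passed in the same direction there, where 825 of 5709 genes passed (14.5%: 6.59% higher and 7.86% lower). The exceptions were Dot1l (0.63 ± 0.28, adjusted p = 0.142) and Myo5a (0.28 ± 0.13, adjusted p = 0.146). In 28 of the 36 the sign was the same under each of the 11 stimuli. For Ctsl the log2 change in one fit of all dCA and DMSO wells was 2.72 without stimulus and 2.72 ± 0.05 over the stimuli, where it ran from 2.48 to 3.0. Fth1 was at 0.73 in both, and Ctsd at 0.73 without and 0.74 with stimulus. Apobec1 was at 2.43 without stimulus and 1.01 with stimulus, Slc5a3 at 5.58 and 2.99, and Ddx58 at -3.02 and -0.63. The difference between the effects was tested as an interaction in edgeR: 0 of 5709 genes passed, 179 had an unadjusted p under 0.05, and so did 8 of the 36. For 31 of the 36 the effect was larger without stimulus, the wells in which they had been called. In the lists, 22 of 48 interferon genes fell and 2 rose in stimulated wells, 12 of 24 cholesterol and fatty acid synthesis genes rose and 0 fell, and 36 of 50 ribosomal protein genes rose and 0 fell.

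**Figure D5:**
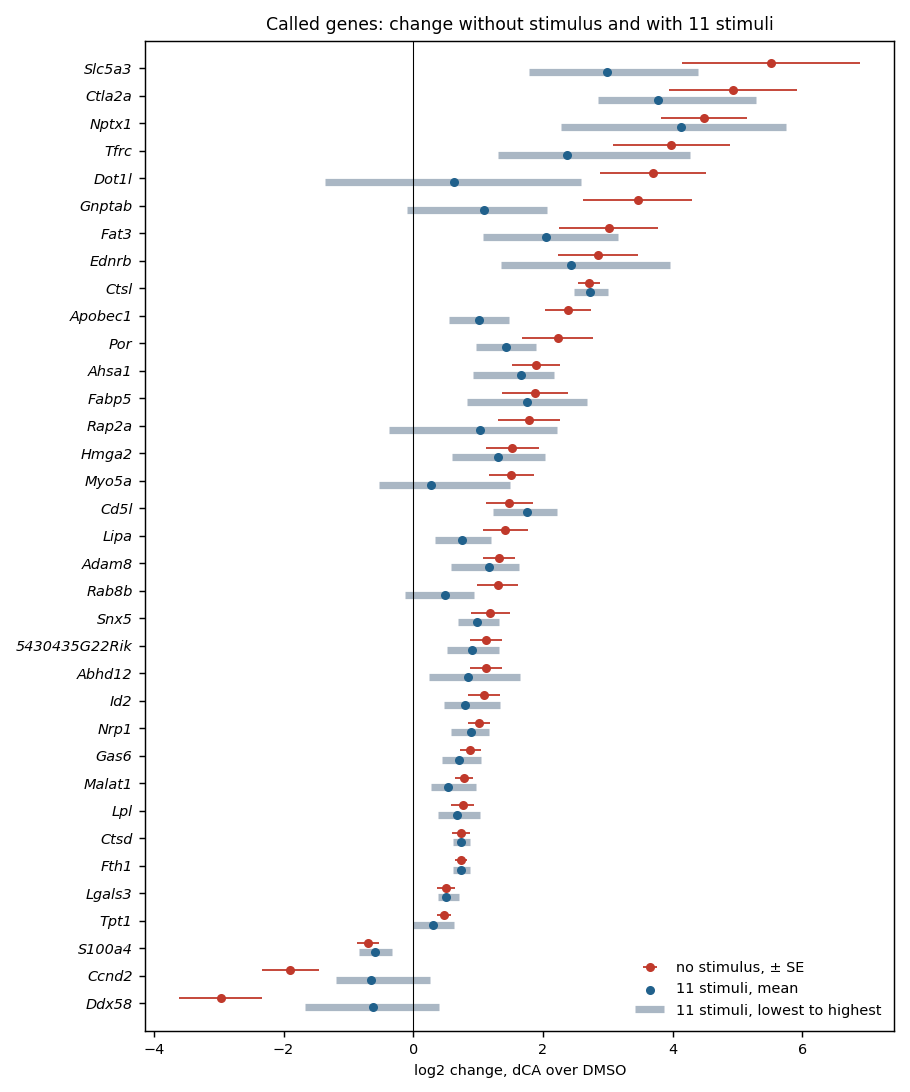
For the called genes drawn, the red point gives the log2 change, dCA over DMSO, without stimulus with its SE, the blue point the mean change over the 11 stimuli, and the grey bar the lowest to the highest of the 11. Ctsl, Ctsd and Fth1 lie at the same place in both, while Dot1l, Gnptab and Ddx58 lie nearer to 0 with a stimulus.

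The dCA wells were also set against those of BRD-6989, the other CDK8 inhibitor, whose dose differs (100 nM for dCA and 1 µM for BRD-6989). Between dCA and BRD-6989 wells 2 of 5908 genes passed (0.0339%, with 233 at an unadjusted p under 0.05), against a median log2 difference of -0.11 over all genes. They were Rn45s, higher with dCA by 0.39 ± 0.04 (adjusted p = 2.43e-15), and Tpt1, higher by 0.53 ± 0.11 (adjusted p = 0.00416). Ctsl averaged 2574 ± 826 in dCA wells and 2240 ± 361 in BRD-6989 wells on the scale of this fit (SD, n = 8 each), and their log2 difference of 0.15 had a 95% interval (normal, from its SE) of -0.10 to 0.39. For Fth1 the difference was -0.06, between -0.22 and 0.11, and for Ctsd 0.17, between -0.09 and 0.42. For Nptx1 it was 0.41 (-0.27 to 1.09) and for Tfrc 0.14 (-0.85 to 1.12), intervals too wide to show that the compounds act alike. The 36 genes had been called in these same dCA wells, 33 of them as rises, and the intervals do not allow for that choice. The interval held 0 for 30 of the 36 genes. The other 6, higher with dCA before adjustment but not after it except for Tpt1, were Dot1l (1.72, 0.53 to 2.91), Apobec1 (1.07, 0.53 to 1.60), Ahsa1 (0.77, 0.20 to 1.34), Myo5a (0.59, 0.03 to 1.14), Gas6 (0.44, 0.16 to 0.73) and Tpt1. Slc5a3 averaged 88.5 ± 107 in dCA wells and 70.4 ± 64.1 in BRD-6989 wells, Ddx58 38.7 ± 64.9 and 52.9 ± 51.6, and Ccnd2 75.3 ± 54.6 and 49.3 ± 24 (SD, n = 8 each), without passing.

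The 8 time labels allow a look at whether the dCA effect drifted. In a fit of pretreatment by time, 0 of 5709 genes passed, with 170 at an unadjusted p under 0.05, and DESeq2 called 0, with 131 at an unadjusted p under 0.05. The slopes of Ctsl, Nptx1 and Tfrc had unadjusted p of 0.301, 0.0232 and 0.676. Nptx1 was highest in the dCA well at 180 min, with 551.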

How the data were processed

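Per the labels' protocols, transcript 3' ends of each well were sequenced with a primer that holds a random barcode. The authors deposited UMI counts and total read counts for 23481 genes, 8773 of them without UMI in any well, and counts for 58 TF-seq reporters. A second reporter table, equal to these counts, was left out. The submitters' processing notes name the aligner BWA, edgeR and the mm10 build; no source used here gives versions or steps.

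Genes that averaged 1 UMI or more in a well were tested in R 4.3.3 with edgeR 4.0.16 (TMM, quasi-likelihood, time label as block; 2-sided; Benjamini-Hochberg over all features tested, threshold 0.05). Reporters needed a mean of at least 5 counts. DESeq2 1.42.0 and other settings were alternatives. Fits over 192 wells or more took the dispersion trend from 500 genes. The code was tested on simulated data. Wells of a time label share that label, the plate row and the well tag. Correlations were taken between dCA and DMSO wells on deviations from the group mean of each gene, over 1000 genes. Within a time label they ran from -0.0117 to 0.108, with a median of 0.064. Between wells of other time labels they ran from -0.128 to 0.127, with a median of -0.017. Genes named are the 20 largest rises and 12 largest falls among those called and, per list, up to 3 called members each way or the 2 of highest level; some others were fixed or are marked in the text. Members and lists were chosen with earlier results of these data known. Levels are CPM. UMI totals per well ran from 51040 to 103310, and intervals for low counts are exact and cover counting error only. Coordinates, names and promoters come from RefSeq tables of GRCm38.p6. Symbols absent from a table are named only. Some genes and reporters that enter the counts are not reported here by name.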

Additional observations from a re-analysis of the deposited data

Results flagged for a closer look

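In each group of 8 wells, the value farthest from its neighbour was set against Dixon's 95% critical value, and 31 of 204 groups passed (15.2%). For normally distributed values, chance passes it in about 1 of 20 groups. Some groups here had 1 UMI in a single well and 0 in the others (Cdk8 and Ccr3 in DMSO wells), and these pass too. The share that passed can therefore not be read against 1 of 20. Values are CPM, with the time label of the well.

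Among the genes that rose, Nptx1 reached 551 in the dCA well at 180 min and 125 in the DMSO well at 30 min, Cd5l was low in the dCA well at 30 min, with 158, and Tpt1 reached 5601 in the DMSO well at 60 min. Single DMSO wells stood apart for Ctla2a (22.7 at 15 min), Tfrc (80.7 at 90 min), Dot1l (96.9 at 90 min) and Ednrb (125 at 15 min). Among those that fell, DMSO wells stood apart for Ddx58 (440 at 120 min), Ccnd2 (609 at 45 min) and S100a4 (1916 at 30 min). The wells set apart in Tfrc, Dot1l and Ctla2a hold most or all of the DMSO signal of these genes.

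Among genes not called, dCA wells stood apart for Srebf1, a lipid synthesis regulator (298 at 45 min), Irak1 (209 at 180 min), Ifit3 (102 at 150 min), Cxcl10 (512 at 120 min) and Clec10a, a lectin (12.7 at 150 min). Jun, a member of AP-1, was highest at 120 min in both groups, with 396 in the dCA well and 614 in the DMSO well. DMSO wells stood apart at 150 min for the chaperones Calr (2489), Hsp90ab1 (2062) and Hspa8 (226, the lowest of its group). At 90 min they did for H2-D1 of MHC class I (969), C1qb of complement (613, the lowest) and Cdk8 (16.1). At 120 min they did for Med13 (160) and Ptgs1 (133), and at other times for Med15 (223 at 180 min), Ccr3 (11.4 at 15 min), Spn (118 at 60 min) and Cxcl10 (15.6 at 45 min, the lowest). The NFkB_1 reporter reached 94914 CPM of reporter counts in the DMSO well at 150 min. Between dCA and BRD-6989 wells, Rn45s differed by 0.39 and Tpt1 by 0.53 on the log2 scale, both higher with dCA.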

How the results depend on the processing

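The 36 genes called were 62 with DESeq2 (42 higher), 41 with DESeq2's size factors (32 higher), 17 with total read counts, 10 in the wells of 60 min and later, 63 with the wells of the whole series in one fit (46 higher), 30 with counts thinned to one depth (22 higher), 29 without a filter on low counts, 42 with a mean of at least 5 UMI (34 higher), 40 with the Rn45s share as a covariate (33 higher), 49 with all 24 unstimulated wells (43 higher; chosen after seeing the data), and 25 to 45 without 1 time. Without the replicate block there were 44 (36 higher), 33 of them shared. Called under every setting were 7 genes (Adam8, Apobec1, Ctsd, Ctsl, Fth1, Nptx1 and Nrp1), and 15 without any 1 time. Reporters called were 3 to 5 without 1 time, 3 with DESeq2, 3 without the replicate block, and 36 against 4 when scaled to UMI (chosen after seeing the data). Between dCA and BRD-6989, the 2 calls became 1 with DESeq2, 1 without the replicate block, 0 with a mean of at least 5 UMI (90 genes at an unadjusted p under 0.05), and 1 to 3 without 1 time. The slope over time was called for 1 gene with DESeq2's size factors and 1 with total read counts. The interaction with the stimulus was called for 0 genes under each alternative. Signs turned for Med12 (-0.24, -0.34 and -0.31 without 30, 45 and 60 min, -0.67 with total read counts, -0.80 from 60 min on, -0.0583 with 24 wells; -0.343 to 0.557 without 1 time), for Rn45s (0.0332, 0.00699 and 0.0117 without 60, 90 and 150 min, 0.0292 with total read counts, 0.035 with its share as a covariate; -0.126 to 0.0332 without 1 time), for IRF3.7_45 (0.0259 scaled to UMI) and for the control reporter minP_58 (-0.046 without 30 min and -0.00539 without 90 min, against 0.0941 with all wells). The cause of these changes was not tested. Over the named genes, 772 alternative values kept their direction and side of the threshold, 143 lost the call, 10 gained one and 12 turned sign. At 24206 to 45212 UMI per well without Rn45s, genes at a few UMI per group could not be compared.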

Other observations

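Rn45s took a like share of UMI in both groups, and its log2 change was -0.04 ± 0.04 (adjusted p = 1.00). In the wells of 60 min and later alone it was -0.23 (adjusted p = 7.38e-07), and without the wells of 45 min it was -0.13 (adjusted p = 0.0173). With no filter on low counts it kept its size, -0.0406, and passed (adjusted p = 0.00211).

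Reads per UMI ran from 6.17 to 6.89 in dCA wells and from 5.71 to 6.73 in DMSO wells (exact paired permutation p = 0.0859, or 0.201 adjusted over 7 measures).

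Other genes of low level with no overlap between groups were Clec10a, with 1 UMI in dCA wells and 22 in DMSO wells (ratio DMSO over dCA 23.1, 95% interval 3.74 to 954), and Spn, the sialophorin CD43, with 2 and 23 UMI (12.1, 2.99 to 106). Both were picked after their values were seen, and the intervals cover counting error only and do not allow for that choice. Neither passed, with adjusted p of 0.386 and 0.614, and both were lower with dCA in the stimulated wells as well, by -2.46 and -2.03 on the log2 scale.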
